A study of Secale cereale x Triticum turgidum subsp. durum with 39 samples.

Results

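TUBA is the symbol under which the platform's probe-to-gene table lists an alpha-tubulin gene of wheat (NCBI Gene 543387). Its members were the probe sets that carry that symbol, and there were 2 of them among the 61204 probe sets tested: Ta.812.1.S1_x_at and Ta.723.1.S1_at. A probe set is a group of short probes on an Affymetrix array that together report a transcript. By the platform's naming, the suffix _x_at marks a probe set with probes that can also bind other, similar sequences, so Ta.812.1.S1_x_at may add up the transcripts of more than 1 alpha-tubulin gene, and these cannot be told apart here. The position of the gene in a genome and its sequence were not used here.

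RNA abundance was measured with the Affymetrix Wheat Genome Array in triticale, the hybrid cereal of wheat and rye, cultivar Alta. The 39 arrays formed 13 groups of 3 biological replicates: mature pollen grains (MPG), and anthers, stigmas and ovaries, each taken when the anther held tetrads (TET), microspores with a single nucleus (UNM), pollen of a pair of cells (BCP) or tricellular pollen (TCP). All groups were of this cultivar, and the labels give no treatment. The array was designed for wheat, so transcripts of rye origin may bind it less well. RNA was extracted and labelled with one set of kits at TET, another at UNM and BCP, and yet another at TCP and for MPG, per the labels' protocols.

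Alpha-tubulin pairs with beta-tubulin, and the pairs assemble into microtubules. In plant cells microtubules build the spindles of meiosis and mitosis and the phragmoplast that lays down the new cell wall after division, and the cortical microtubules under the plasma membrane guide the deposition of cellulose in growing cells. Anthers hold cells in meiosis before the tetrad stage, the earliest sampled here, and later microspores that divide to form pollen. Ovaries and stigmas, the parts of the pistil, grow by division and elongation over the same period. Pollen tube growth depends mainly on actin filaments, with microtubules present beside them.

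Values were log2 signals made with RMA and ran from 1.95 to 15.02, and a probe set with a mean under 6 is called dim. Differences were tested with limma over all probe sets, and a difference passed at a Benjamini-Hochberg adjusted p under 0.05, with no minimum size. The share of all probe sets that passed a comparison is given as its background where the comparison is first described, and it is the same for both TUBA probe sets. Across probe sets, r between replicate arrays was 0.978 to 0.996, and all 39 arrays were closest to an array of their own group. None of the 26 organ and pollen markers looked for is named on this array, so the organ labels could not be checked against defining genes. In whole organs, fewer cells that express a gene and less of its RNA per cell cannot be told apart.

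The 2 TUBA probe sets differed widely in brightness. Ta.812.1.S1_x_at, called the bright probe set below, had a mean of 13.25 over all arrays and lay between the 15th and the 658th brightest of 61204 on every array. Ta.723.1.S1_at, the dim probe set, had a mean of 4.43 and lay near or below the middle of each array. A difference in brightness between probe sets depends on their probes, so it says nothing of how much of each transcript there was. Both varied among the 13 groups by limma's moderated F test (adjusted p = 2.1e-18 for the bright and 1.1e-07 for the dim probe set), as did 92.2% of all probe sets.

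The bright probe set had its lowest signal in mature pollen, an intermediate one in anthers and its highest in stigmas and ovaries. It was lower in anthers than in both pistil organs at each of the 4 stages, by 1.32-fold to 2.27-fold, and in MPG lower than in all 3 organs at TCP, by 1.72-fold to 3.89-fold. Its 13 group means spanned 2.14 on the log2 scale, or 4.40-fold. Among the 21 genes that the platform annotation or the array's plant controls name, each taken by its brightest probe set, this was the 8th narrowest span, and 6 of the 7 genes with a narrower one had dim means. The ubiquitin control spanned 1.57 by its brightest probe set, 3.25 by the next and 0.97 by its 3' probe set (mean 11.61), and the actin control 8.03. Of the 8547 probe sets with a mean of at least 8, 18.3% had a narrower span.

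**Figure D1:**
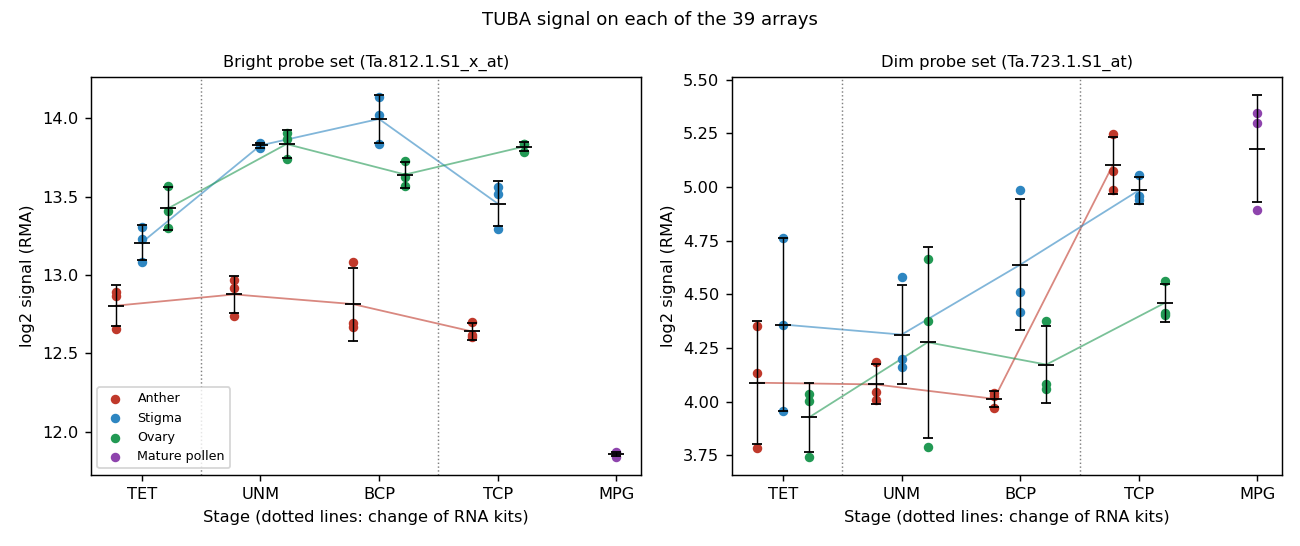
Log2 signal of the bright (left) and dim (right) TUBA probe set on every array, by stage and organ; coloured points are arrays, black ticks are group means, bars are the SD over 3 arrays, coloured lines join an organ's means, and dotted lines mark a change of RNA kits. In the left panel all 12 anther arrays lie at or below 13.08 and the MPG arrays below them at 11.84 to 11.87, and in the right panel anther TCP and MPG arrays lie above the earlier anther arrays; the scales of the panels differ.

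At TET, the bright probe set had log2 signals of 12.87, 12.65 and 12.89 in anthers, against 13.09, 13.23 and 13.31 in stigmas and against 13.41, 13.57 and 13.30 in the ovaries. Every anther array was below every pistil array, while stigmas and ovaries overlapped. Anthers were 1.54-fold lower than ovaries (log2 difference -0.62, SE 0.11, adjusted p = 4.7e-05), where 22.6% of probe sets passed. They were 1.32-fold lower than stigmas (-0.40, SE 0.11, adjusted p = 0.0067; 23.3% of probe sets passed), a call that ended without anther TET replicate 2 (-0.33, adjusted p = 0.060) and in the fit on these groups alone (adjusted p = 0.061). The stigma mean was 0.22 below the ovary mean and did not pass (95% interval -0.45 to 0.01, adjusted p = 0.42; 4.3% of probe sets passed).

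At UNM, the first stage at which microspores stand free, the signals were 12.97, 12.92 and 12.74 in anthers, against 13.84, 13.83 and 13.81 in stigmas and against 13.74, 13.90 and 13.87 in the ovaries. The anther arrays again lay below all pistil arrays, and those of the pistil organs overlapped. Anthers were 1.93-fold lower than stigmas (-0.95, SE 0.11, adjusted p = 1.3e-08; 30.7% of probe sets passed) and 1.95-fold lower than ovaries (-0.96, SE 0.11, adjusted p = 1.2e-08; 31.7% passed). Stigmas and ovaries had nearly equal means, with a difference of -0.01 and a 95% interval of -0.24 to 0.22 (adjusted p = 0.98; 8.21% of probe sets passed).

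At BCP, after the first pollen mitosis, the signals were 12.67, 13.08 and 12.69 in anthers, against 14.02, 14.14 and 13.83 in stigmas and against 13.57, 13.73 and 13.63 in the ovaries. The organs were fully separated here, with stigmas the highest of all 13 groups. Anthers were 2.27-fold lower than stigmas (-1.18, SE 0.11, adjusted p = 8.4e-11; 31.6% of probe sets passed) and 1.77-fold lower than ovaries (-0.83, SE 0.11, adjusted p = 2.1e-07; 30.6% passed). Stigmas were 1.28-fold higher than ovaries (0.35, SE 0.11, adjusted p = 0.021; 19.7% passed). That last call ended in the fit on these groups alone (adjusted p = 0.067) and without ovary replicate 1 (0.32) or 3 (0.35) or stigma replicate 1 (0.34) or 2 (0.29).

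At TCP, when the pollen holds its sperm cells, the signals were 12.70, 12.60 and 12.62 in anthers, against 13.56, 13.52 and 13.29 in stigmas and against 13.79, 13.84 and 13.83 in the ovaries. The organs were again fully separated, now with ovaries above stigmas. Anthers were 1.76-fold lower than stigmas (-0.82, SE 0.11, adjusted p = 1.4e-07; 53.8% of probe sets passed) and 2.26-fold lower than ovaries (-1.18, SE 0.11, adjusted p = 3.4e-11; 60.8% passed). Stigmas were 1.29-fold lower than ovaries (-0.36, SE 0.11, adjusted p = 0.012; 30.1% passed), and this call ended without stigma TCP replicate 3 (-0.28, adjusted p = 0.094) and when the hybridisation controls were set equal (-0.42, adjusted p = 0.068).

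Averaged over the 4 stages, anthers were 1.79-fold lower than stigmas (-0.84, SE 0.06, adjusted p = 4.1e-15; 47.1% of probe sets passed) and 1.86-fold lower than ovaries (-0.90, SE 0.06, adjusted p = 5.5e-16; 52.8% passed). Stigmas and ovaries did not pass in that mean (-0.06, 95% interval -0.17 to 0.06, adjusted p = 0.50; 30.2% passed), and their difference had opposite signs at BCP and TCP. The anther differences kept their sign and their call under both other scalings. When arrays were aligned on their brighter 50% of probe sets they ran from -0.43 to -1.13 over the 4 stages and both pistil organs, and when the hybridisation controls were set equal from -0.72 to -1.75. The second scaling moved the differences from stigmas by more than 1.5 times at TET (-0.86) and TCP (-1.32), and also in the mean of the stages (-1.27).

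Mature pollen had the lowest signal of the bright probe set, at 11.84, 11.86 and 11.87. These 3 arrays spanned 0.03 and lay below all 36 organ arrays. MPG was 1.72-fold lower than anthers at TCP (-0.78, SE 0.11, adjusted p = 4.6e-07; 52.6% of probe sets passed), 3.03-fold lower than stigmas at TCP (-1.60, SE 0.11, adjusted p = 8.4e-15; 75.2% passed) and 3.89-fold lower than ovaries at TCP (-1.96, SE 0.11, adjusted p = 2.7e-17; 78.2% passed). All 4 of these groups shared their kits. In rank, TUBA was the 606th to 658th brightest of 61204 probe sets in MPG, the 324th to 358th in anthers at TCP, the 84th to 124th in stigmas at TCP and the 32nd to 42nd in ovaries at TCP.

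Several technical values moved with the pollen differences. Probe sets at a signal of 8 or more made up on average 9.49% in MPG, 13.1% in anthers at TCP, 16.1% in stigmas at TCP and 15.9% in ovaries at TCP. The poly-A control transcripts averaged 8.88 in MPG, 5.91 in anthers, 5.86 in stigmas and 8.44 in ovaries at TCP. The hybridisation controls averaged 11.06 in MPG, 10.64 in anthers, 10.14 in stigmas and 10.08 in ovaries at TCP. Set equal on those controls, the pollen differences were -1.20 from anthers, -2.52 from stigmas and -2.94 from ovaries, and set equal on the brighter 50% of probe sets they were -0.59, -1.16 and -1.44. Over all probe sets the median differences ran the other way, at 0.19 from anthers, 0.30 from stigmas and 0.33 from ovaries. The 3' minus the 5' probe set of the gapdh control was -3.38 in MPG, -3.29 in anthers, -1.61 in stigmas and -1.85 in ovaries at TCP. It followed the level of the 5' probe set, at 8.17 in MPG, 7.86 in anthers, 5.70 in stigmas and 5.97 in ovaries at TCP. The 3' probe set was dim (mean 4.38) and its group means spanned 0.71. Whether the difference reflects RNA quality was not tested. For the ef1a control the 3' minus the 5' probe set was 0.94 (MPG), 1.26 (anthers), 0.67 (stigmas) and 0.85 (ovaries), with both probe sets dim (means 5.33 and 4.49). The part of these values in the size of the TUBA differences was not tested beyond those scalings.

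**Figure D2:**
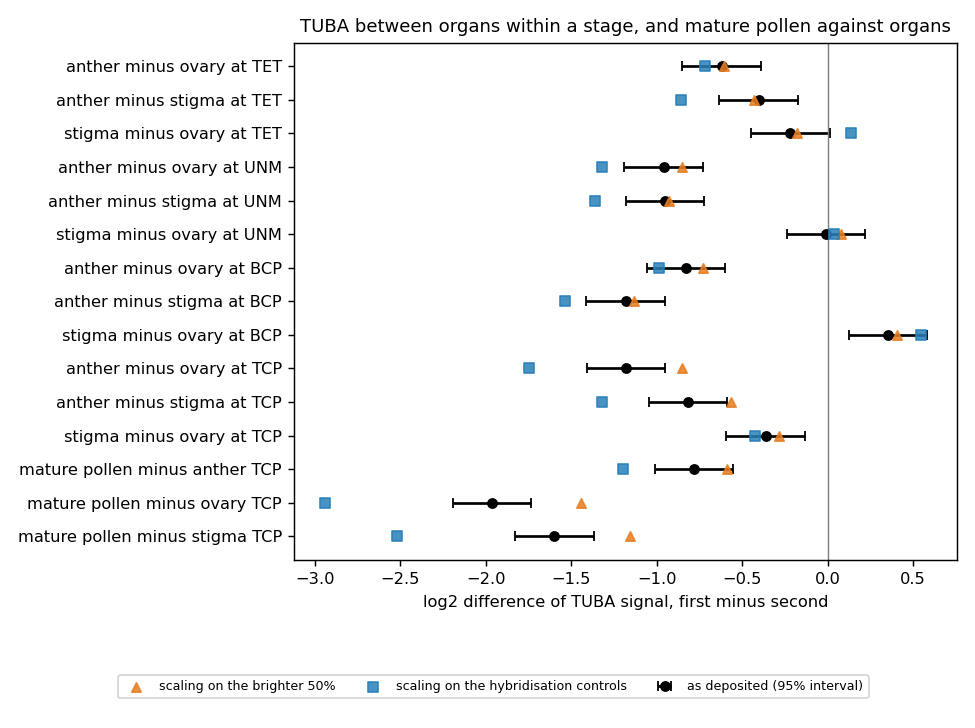
Log2 difference of the bright TUBA probe set between organs within each stage and between mature pollen and organs at TCP, first group minus second; black points are the deposited values with 95% intervals, triangles and squares the same differences with arrays set equal on the brighter 50% of probe sets or on the hybridisation controls. All anther and pollen differences lie left of 0 under the 3 scalings, while stigma minus ovary lies near 0 at UNM, right of it at BCP and left of it at TCP.

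Ordered by mean, the groups ran from stigma BCP (14.00 ± 0.15, SD, n = 3) through ovary UNM (13.84 ± 0.09), stigma UNM (13.83 ± 0.02), ovary TCP (13.82 ± 0.03), ovary BCP (13.64 ± 0.08), stigma TCP (13.46 ± 0.14), ovary TET (13.43 ± 0.13) and stigma TET (13.21 ± 0.11) to the anthers, and ended with MPG (11.86 ± 0.02). The anther means were 12.88 ± 0.12 at UNM, 12.82 ± 0.23 at BCP, 12.80 ± 0.13 at TET and 12.64 ± 0.05 at TCP. Arrays of neighbouring groups overlapped except at 4 places in that order: between ovary TCP and ovary BCP, ovary BCP and stigma TCP, stigma TET and anther UNM, and anther TCP and MPG. By rank within the array the pistil groups still held places 1 to 8, the anther groups 9 to 12 and MPG place 13, while 6 groups changed places with neighbours.

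Across stages the anther signal stayed within a narrow band. From TET to UNM the anther mean differed by 0.07 (95% interval -0.16 to 0.30, adjusted p = 0.65; 40.2% of probe sets passed), from UNM to BCP by -0.06 (-0.29 to 0.17, adjusted p = 0.80; 21.5% passed) and from BCP to TCP by -0.17 (-0.40 to 0.06, adjusted p = 0.18; 60.8% passed). None of these steps passed, and the widest bound of the 3 intervals was -0.40. When the hybridisation controls were set equal, 2 of them passed with the opposite sign (-0.65 from TET to UNM and 0.48 from UNM to BCP).

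In the pistil the probe set rose from TET to UNM, by 1.54-fold in stigmas (0.62, SE 0.11, adjusted p = 3.6e-05; 35.5% of probe sets passed) and 1.33-fold in ovaries (0.41, SE 0.11, adjusted p = 0.0039; 37.6% passed). The kits changed at this step, so stage and kit cannot be told apart. Both differences lost the call and turned to -0.14 (stigmas) and -0.04 (ovaries) when the hybridisation controls were set equal, and the ovary call also ended on the brighter 50% of probe sets (0.19). From UNM to BCP, with unchanged kits, neither organ passed: the difference was 0.17 in stigmas (-0.06 to 0.40, adjusted p = 0.46; 11.9% passed) and -0.19 in ovaries (-0.42 to 0.03, adjusted p = 0.40; 4.62% passed). On the hybridisation controls the stigma step passed (0.66). The array's controls differed between these stages despite the unchanged kits. The poly-A controls averaged 6.03 in anthers, 5.45 in stigmas and 5.16 in ovaries at UNM, and 6.81, 6.89 and 6.99 at BCP. The hybridisation controls averaged 11.04, 10.63 and 10.68 at UNM, and 10.50, 10.14 and 10.34 at BCP, in the same order. Their part in the steps was not tested beyond the scalings.

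From BCP to TCP the stigma signal fell by 0.54, or 1.45-fold (SE 0.11, adjusted p = 0.00023; 31.5% of probe sets passed), while the ovary difference of 0.18 did not pass (-0.05 to 0.41, adjusted p = 0.27; 27.2% passed). Kits changed here too, in both organs alike. The poly-A controls did not move alike: they averaged 6.89 at BCP and 5.86 at TCP in stigmas, against 6.99 and 8.44 in ovaries. Their part in these steps was not tested. The difference between the stigma and ovary steps passed on its own, where 13.5% of probe sets passed. The stigma change minus the ovary change was -0.72 on the log2 scale (SE 0.16, adjusted p = 0.0013). The step from TET to UNM also differed between anthers and stigmas (0.07 and 0.62, difference -0.55, SE 0.16, adjusted p = 0.012; 18.8% passed), a call that ended on the hybridisation controls (-0.51, adjusted p = 0.21). The other 7 of the 9 differences of changes did not pass. From TET to UNM the anther change differed from that of ovaries by -0.34 (adjusted p = 0.15; 18.3% of probe sets passed), and the stigma change from that of ovaries by 0.21 (adjusted p = 0.72; 1.76% passed). From UNM to BCP, with unchanged kits, the differences were -0.23 for anthers against stigmas (adjusted p = 0.41; 17.7% passed), 0.13 for anthers against ovaries (adjusted p = 0.70; 16% passed) and 0.36 for stigmas against ovaries (adjusted p = 0.22; 5.56% passed). From BCP to TCP they were 0.37 for anthers against stigmas (adjusted p = 0.065; 40.8% passed) and -0.35 for anthers against ovaries (adjusted p = 0.073; 42.7% passed).

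The dim probe set did not follow the bright one. Over the 13 group means their Pearson r was -0.33 and Spearman's rho -0.04, a description over groups that share kits by stage. Its lowest groups were those of early anthers and ovaries, with means of 3.93 to 4.09 in ovary TET and in anther TET, UNM and BCP. Its highest were MPG (5.34, 5.30 and 4.89), anther TCP (5.25, 4.98 and 5.07) and stigma TCP (5.05, 4.94 and 4.96). These 9 arrays overlapped among each other, and only a stigma BCP array (4.98) among the other 30 reached their range.

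In anthers the dim probe set was at 5.25, 4.98 and 5.07 at TCP, against 3.97, 4.03 and 4.04 at BCP, a rise of 2.13-fold in signal (1.09, SE 0.19, adjusted p = 6.5e-06; 60.8% of probe sets passed). The kits changed at this step, so stage and kit cannot be told apart, and the median difference over all probe sets was 0.17. The same step did not pass in ovaries (0.29, adjusted p = 0.29) or stigmas (0.35, adjusted p = 0.18). The anther step was larger than that in ovaries by 0.80 (SE 0.27, adjusted p = 0.015; 42.7% of probe sets passed) and than that in stigmas by 0.74 (SE 0.27, adjusted p = 0.024; 40.8% passed). The second of these calls ended without stigma BCP replicate 3 (0.57) and without anther TCP replicate 1 (0.67).

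At TCP, the dim probe set was higher in anthers than in ovaries by 1.56-fold (0.64, SE 0.19, adjusted p = 0.0037; 60.8% passed), the opposite sign to the bright one, and did not pass against stigmas (0.12, -0.26 to 0.50, adjusted p = 0.62). Stigmas were above ovaries (0.52, SE 0.19, adjusted p = 0.031), where 30.1% of probe sets passed. That call ended when any of the 6 arrays but ovary TCP replicate 1 was left out (0.49 to 0.55) and when the hybridisation controls were set equal (0.46, adjusted p = 0.16). MPG was 1.64-fold higher than ovaries at TCP (0.72, SE 0.19, adjusted p = 0.00091; 78.2% passed) and did not pass against anthers (0.08, adjusted p = 0.75) or stigmas (0.19, adjusted p = 0.35). These depended on the scaling: on the brighter 50% of probe sets MPG was higher than stigmas (0.64, adjusted p = 0.0023) and than ovaries (1.24), and on the hybridisation controls lower than stigmas (-0.73, adjusted p = 0.0047), so no direction against stigmas is given. In the mean of the 4 stages, stigmas were above ovaries (0.36, SE 0.09, adjusted p = 0.0025; 30.2% passed) and anthers below stigmas (-0.25, SE 0.09, adjusted p = 0.026; 47.1% passed). The anther call ended without anther TET replicate 2 (-0.21), stigma TET replicate 1 (-0.20), stigma UNM replicate 3 (-0.22) or stigma BCP replicate 3 (-0.21), and on the brighter 50% of probe sets (-0.18). At BCP anthers were lower than stigmas (-0.62, SE 0.19, adjusted p = 0.0086), which ended without stigma BCP replicate 3 (-0.45, adjusted p = 0.096).

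All means of the dim probe set were under 6, and most were below the median of all probe sets on the arrays, which was 5.09 in MPG, 4.99 in anthers at TCP and 4.85 to 4.91 in the other groups. By rank it stood on average at the 51.8th percentile of the array in MPG, at the 52.0th in anther TCP, at the 33.3rd in anther BCP and at the 29.5th in ovary TET. When the hybridisation controls were set equal, the dim probe set was lower in MPG than in ovaries (-0.26, adjusted p = 0.30), and the calls of anthers over ovaries at TCP and of both differences of steps ended (0.07, 0.40 and 0.59). The rise in anthers kept its sign and its call (0.94). At such a signal a fold is one of brightness and not a measured ratio of transcripts.

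Of the cytoskeleton genes looked for, the annotation and the array's controls name TUBA and actin alone, so the beta-tubulins and microtubule-binding proteins were not described here. Actin, the subunit of the filaments on which pollen tube growth depends, had the opposite sign to TUBA in late anthers and in pollen set against pistil organs, though not in every comparison. The M probe set of the actin control had a mean of 13.61 in MPG and 13.98 in anthers at TCP, against 7.15 in stigmas and 6.65 in ovaries at TCP, where TUBA was at 11.86, 12.64, 13.46 and 13.82. From UNM to BCP in anthers, with unchanged kits, actin rose by 3.61 on the log2 scale (SE 0.19, adjusted p = 3.4e-17; 21.5% passed) while TUBA differed by -0.06 and did not pass. The size of that rise depended on the actin probe set: it was 1.29 by the 5', 3.47 by the other M and 7.85 by the 3' probe set, and all passed. The poly-A and hybridisation controls also differed between these stages, as given above, and their part in the actin rise was not tested. Elsewhere TUBA and the M probe set of actin had the same sign and passed: in anthers against stigmas at UNM (-0.69 for actin and -0.95 for TUBA) and in stigmas against ovaries at BCP (0.77 and 0.35). At UNM no other actin probe set passed (0.14 for the 5', -0.22 for the other M and -0.15 for the 3' probe set). At BCP the other M probe set passed (0.53), while the 5' (0.12) and the 3' probe set (0.42) did not. Over the 13 group means, r between both genes was -0.72, the lowest Pearson r among the 21 named genes. It was -0.52 without MPG, where CAT1 (-0.70) and GAPN (-0.61) were lower, and Spearman's rho was -0.24, against -0.69 for GAPN, -0.65 for CAT1 and -0.57 for COR410.

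**Figure D3:**
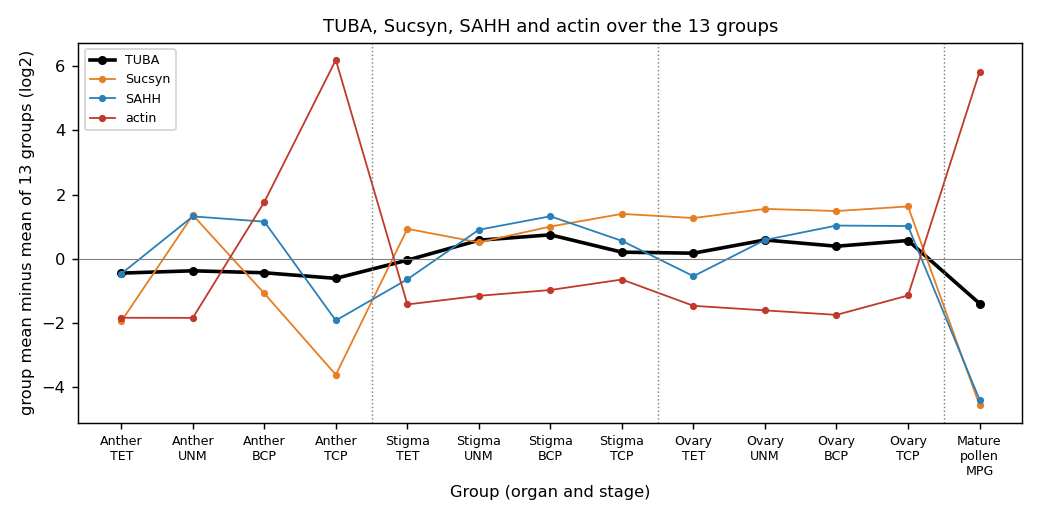
Group means of TUBA (bright probe set), Sucsyn, SAHH and actin, each as the log2 difference from its own mean over the groups. Among the named genes, Sucsyn and SAHH had the highest Pearson r with TUBA over the 13 groups, and actin the lowest. Dotted lines part the organs. TUBA moves far less than the other genes. Actin rises in anthers at BCP and TCP and is high in pollen, and TUBA has its lowest means in anther TCP and MPG.

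The named genes with the pattern most like that of the bright probe set were Sucsyn, the sucrose synthase control (r = 0.85), SAHH, the adenosylhomocysteinase of the methylation cycle (r = 0.77), and the control CYP86-TA at its 3' probe set (r = 0.75), all over the 13 group means of log2 signals. The other 2 probe sets of CYP86-TA went against that, with r of -0.34 and -0.57, so its likeness is that of a single probe set. That of Sucsyn also depended on the probe set, with r of 0.73 by the M and 0.30 by the dim 5' probe set (mean 4.59). The other SAHH probe set had an r of 0.77. By their brightest probe sets, Sucsyn, SAHH and CYP86-TA were at their lowest in MPG or anther TCP. Sucsyn had means of 6.43 in MPG and 7.38 in anther TCP and 12.62 in ovary TCP, and SAHH of 8.38, 10.84 and 13.78 in the same groups. The likeness depended in part on pollen: without MPG, r was 0.73 for Sucsyn, 0.52 for SAHH and 0.68 for CYP86-TA. XTH, the 4th by Pearson r (0.72), was above all 3 without MPG (r = 0.78) and by Spearman's rho (0.86, against 0.71 for Sucsyn, 0.56 for SAHH and 0.80 for CYP86-TA). By Pearson r, least like it besides actin were THI1.1 (r = -0.66) and gapdh (r = -0.65), both with dim means over all arrays.

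Among probe sets outside those genes, 294 of 61160 had an r of at least 0.9. The closest were Ta.23807.10.S1_x_at (r = 0.980) and Ta.23807.10.S1_at (r = 0.976), which the table pairs with no gene. They had their lowest mean in MPG (5.63 and 5.64) and their highest in stigma UNM (11.50 and 11.61), so they changed by far more than TUBA did. Their r without MPG was 0.97 and 0.96.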

How the data were processed

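RNA of triticale organs and pollen was measured on 39 arrays in 13 groups of 3. The authors deposited log2 signals, which came from RMA per the submitters' processing notes. Not given in the sources used here are its version and whether it was run on all arrays at once. RMA subtracts background, gives the arrays it is run on the same distribution of probe signals and summarises probes into probe sets. Of 61290 probe sets, 86 that report spike-in, bacterial or tag sequences were set aside. The other 61204 went into limma 3.58.1 under R 4.3.3, with lmFit on 13 group means, contrasts and eBayes. The fit had 26 residual and 7.5 prior degrees of freedom. An adjusted p is Benjamini-Hochberg over the 61204 probe sets of its comparison, and there were 36 comparisons, each on both TUBA probe sets. Arrays have no read depth; their number limits the precision. The code was tested on simulated data.

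Gene names came from the platform's annotation, which gives 1273 probe sets 1 symbol each, none several and the rest none; 13 genes have a symbol that is not a locus number, and the array's plant controls add 8. Named genes are TUBA, the cytoskeleton genes, and the 3 most and 3 least like TUBA by Pearson r over group means, with the 2 closest other probe sets; a gene is represented by its brightest probe set. XTH, CAT1, GAPN, COR410 and ubiquitin fall outside that rule and were named after their values were seen. The members and lists were chosen with earlier results of these data known. Replicate numbers were checked for pairing: in 1 of 24 pairs of groups, anther and stigma BCP, every same-numbered pair of arrays correlated over 0.1 in its deviations from the group means. Alternatives were a pair of other scalings, which aligned arrays on the median of their brighter 50% or on the mean hybridisation control, then a filter on the dim probe sets, the compared groups fitted by themselves, robust moderation with a variance trend, a replicate block and leaving out each array.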

Additional observations from a re-analysis of the deposited data

Results flagged for a closer look

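In 4 cases the change at a stage step differed between organs by a test of the difference itself. The bright TUBA probe set changed from BCP to TCP by -0.54 in stigmas and 0.18 in ovaries (difference -0.72), and from TET to UNM by 0.07 in anthers and 0.62 in stigmas (difference -0.55). The dim TUBA probe set changed from BCP to TCP by 1.09 in anthers, against 0.29 in ovaries (difference 0.80) and 0.35 in stigmas (difference 0.74). The kits changed at both of these steps, in all organs alike. From BCP to TCP the poly-A controls went from 6.81 to 5.91 in anthers and from 6.89 to 5.86 in stigmas, but from 6.99 to 8.44 in ovaries. Their part in these differences was not tested.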

How the results depend on the processing

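For the bright TUBA probe set, anthers against ovaries at all 4 stages, anthers against stigmas at UNM, BCP and TCP, and the 3 pollen comparisons kept their direction and their call under every alternative run. The other scalings shifted all probe sets of a comparison by -0.22 to 0.52 (brighter 50%) or -0.98 to 0.54 (hybridisation controls), and the cause of the changes below was not tested beyond that. On the brighter 50%, the sign turned for stigma minus ovary at UNM (0.078) and in the mean of the stages (0.0049), and for the anther steps TET to UNM (-0.059) and BCP to TCP (0.093). There the ovary step TET to UNM lost its call (0.19), and the difference of the BCP to TCP changes between anthers and stigmas gained one (0.56). On the hybridisation controls, the sign turned for stigma minus ovary at TET (0.14), at UNM (0.041) and in the mean (0.077), and for the steps TET to UNM in anthers (-0.65), ovaries (-0.044) and stigmas (-0.14) and UNM to BCP in anthers (0.48) and ovaries (0.15). It also turned for the TET to UNM change of stigmas minus that of ovaries (-0.10). There, stigma minus ovary at TCP (-0.42) and the TET to UNM change of anthers minus that of stigmas (-0.51) lost their calls, and the stigma step UNM to BCP (0.66) and the BCP to TCP change of anthers minus that of ovaries (-0.76) gained one. For the dim probe set those controls turned anther minus stigma at TCP (-0.39) and MPG minus anthers (-0.34), stigmas (-0.73, past the test) and ovaries (-0.26), and the brighter 50% gave MPG minus stigmas a call of the opposite sign (0.64).

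The BCP to TCP change of anthers minus that of stigmas passed with a filter that kept 31620 probe sets (0.37, adjusted p = 0.046) and with a variance trend and robust moderation (0.37, adjusted p = 0.039), as did that of anthers minus ovaries with that second setting (-0.35, adjusted p = 0.046). In the compared groups alone, anther minus stigma at TET (-0.40) and stigma minus ovary at BCP (0.35) lost their calls. With a replicate block the same 2 did so (adjusted p = 0.10 and 0.063), as did the ovary step TET to UNM (0.41, adjusted p = 0.054) and the TET to UNM change of anthers minus that of stigmas (-0.55, adjusted p = 0.078). The block changed no other call of the bright probe set. Anther and stigma BCP were the only groups to pass the limit of 0.1 in the check of replicate numbers, which does not show that samples were paired. Their difference of -1.18 kept its call with the block.

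Leaving out each array in turn changed a sign or a call for these differences. Anther minus stigma at TET ran from -0.46 to -0.33, stigma minus ovary from -0.058 to 0.025 at UNM, 0.29 to 0.44 at BCP and -0.41 to -0.28 at TCP. The anther steps ran from -0.0032 to 0.14 (TET to UNM) and -0.20 to 0.011 (UNM to BCP). The change of anthers minus that of ovaries ran from -0.0011 to 0.21 (UNM to BCP) and -0.43 to -0.22 (BCP to TCP), and that of anthers minus stigmas from 0.28 to 0.50 (BCP to TCP). For the dim probe set, MPG minus anthers at TCP ran from -0.0065 (without MPG replicate 1) to 0.22. Most of these values lie near 0 or near the test's threshold. The number of arrays, 3 in each group, and for the dim probe set its low signal limit what can be told apart.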
